A study of Homo sapiens with 4 samples.

Results

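Homologous recombination and the Fanconi pathway are described here as 34 human genes whose products find, process and copy across broken or crosslinked DNA. The genes were taken by name from the deposited table, as the rows with an Ensembl gene identifier and a symbol on the list. All 34 were found, each with 1 row, among 53777 such rows. Expression was measured by RNA sequencing of NUGC3, an established human gastric cancer cell line. The NIPBL knockdown group had 2 libraries, 1 from cells transfected with short hairpin 1 and 1 with short hairpin 7, and the scramble group, transfected with a control, had 2 libraries. All 4 libraries came from this single line, and all 4 labels carry DOX with no explanation. Scramble 2 is labelled as scramble 1 plus a suffix, which may mean a repeat. The labels do not say that libraries came from separate cultures, so p-values reflect only how these libraries vary. That variation may be technical, and between the knockdown libraries it also includes any difference between the 2 hairpins.

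In homologous recombination, a broken end is trimmed to a single strand, a protein filament is built on that strand, and the missing sequence is copied from the sister chromatid. The Fanconi pathway recognises strands that are linked to each other, marks the FANCD2 and FANCI pair with ubiquitin, and hands the opened lesion to recombination. Both act mainly in S and G2 phase, and many of these genes are transcribed periodically with the cell cycle. NIPBL, the gene lowered here, loads the cohesin ring that holds sister chromatids together.

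Values are the authors' FPKM, in which reads are divided by transcript length and by library size, so levels can be compared between genes. Libraries summed to 682076 to 749446 FPKM, and their read depth is unknown. NIPBL was at 7.27 FPKM with hairpin 1 and 9.17 FPKM with hairpin 7, against 23.92 and 23.11 FPKM in the scramble libraries. It fell by 1.42 ± 0.14 on the log2(FPKM + 1) scale (SE, limma, adjusted p = 0.0218), and without scramble 1 or scramble 2 the adjusted p was 0.257 or 0.261, within a range of 0.0088 to 0.281 over all alternatives. All 10 epithelial markers examined were above 1 FPKM in every library, and 0 of them passed the test between the groups (smallest limma adjusted p = 0.0616). Of 9 markers of blood, endothelial, fibroblast and liver cells, PTPRC and COL1A2 were listed at 0 throughout and COL1A1 alone exceeded 1 FPKM in every library. The SD of the log2 difference over all genes tested was 0.45 between the hairpins and 0.28 between the scramble libraries. Over the 34 repair genes it was 0.25 between the hairpins and 0.36 between the scramble libraries, and without RAD51B it was 0.25 and 0.14.

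Repair genes were mostly lower in the knockdown libraries, by small amounts that did not pass the test. Of 34 members 0 passed an adjusted p of 0.05 (limma on log2(FPKM + 1), adjusted over the 12834 genes averaging 1 FPKM or more), against a background of 2.56% of all genes called. All 34 passed the filter on low values. At an unadjusted p under 0.05, 11 members were lower, where 12.8% of all genes were, and 2 were higher, where 13.6% of all genes were. These counts moved with the libraries used. Without scramble 1 or scramble 2, 5 and 2 members were lower (3.52% and 3.36% of all genes) and 0 higher. Without NIPBL knockdown 1, 13 members were lower (26.8% of all genes) and 4 higher (22.7%), and without NIPBL knockdown 2, 26 members were lower (21.1%) and 2 higher (21.6%). With values rescaled to TPM 7 members were lower (11.3%), and with the scramble libraries averaged 4 were (3.21%). The log2 change was below 0 in 30 of 34 members (28 with values rescaled to TPM) and in 51.7% of all genes. The median log2 change was -0.27 for the members and -0.01 for all genes tested, and that of the members was -0.17 with the hairpin 1 library left out and -0.42 with the hairpin 7 library left out. In 20 members the hairpin libraries were both below the scramble libraries, a pattern held by 30.8% of all genes, and in 3 members both lay above, against 29.5% of all genes. A lower FPKM in a bulk library can come from fewer cells in a phase that uses the gene or from less of its RNA per cell, and these cannot be told apart here.

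The 4 members with the lowest log2 change were RAD51B, XRCC2, FANCB and RAD54L, but that of RAD51B rested on scramble 2 and was -0.10 without it. For the other three the DNA around the start site is shown, to set letters searched there beside their lower transcript levels. The start listed first for RAD51B lies 3762 bases inside the gene as GENCODE 29 gives it, so its window is not shown. RAD51B and XRCC2 encode proteins that help the repair filament form, FANCB a scaffold of the Fanconi core complex, and RAD54L a motor of strand exchange. Each run covers 250 bases before and 50 after the start listed first in RefSeq (GRCh38.p14), read 5′ to 3′ on the gene's strand. Capitals mark the searched letters.
XRCC2, chr7:152676092-152676391, minus strand: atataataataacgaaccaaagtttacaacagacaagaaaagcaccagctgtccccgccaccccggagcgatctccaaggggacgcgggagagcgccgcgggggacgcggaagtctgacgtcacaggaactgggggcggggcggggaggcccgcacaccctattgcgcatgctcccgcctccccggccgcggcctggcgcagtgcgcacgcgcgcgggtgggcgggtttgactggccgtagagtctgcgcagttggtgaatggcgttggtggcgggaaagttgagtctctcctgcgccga
FANCB, chrX:14873020-14873319, minus strand: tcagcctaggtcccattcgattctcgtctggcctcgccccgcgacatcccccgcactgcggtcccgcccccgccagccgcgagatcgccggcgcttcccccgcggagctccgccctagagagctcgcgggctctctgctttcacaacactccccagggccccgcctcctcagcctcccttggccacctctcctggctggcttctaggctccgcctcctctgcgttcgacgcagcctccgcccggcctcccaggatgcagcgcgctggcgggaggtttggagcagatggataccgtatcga
RAD54L, chr1:46247438-46247737, plus strand: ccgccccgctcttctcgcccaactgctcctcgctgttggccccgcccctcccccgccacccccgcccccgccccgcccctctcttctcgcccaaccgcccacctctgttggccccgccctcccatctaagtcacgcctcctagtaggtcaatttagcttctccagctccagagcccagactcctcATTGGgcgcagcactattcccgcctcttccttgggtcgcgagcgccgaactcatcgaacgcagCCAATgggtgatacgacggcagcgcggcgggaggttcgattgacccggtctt
Searched on both strands were TTCGCGC and TTGGCGC for E2F factors, TTTGAA and TTCGAA for the cell cycle element called CHR, CCAAT for the factor NF-Y, and CACGTG for the E-box that MYC and MAX can bind. Other spellings of these sites were not searched. RAD54L held CCAAT at 2 places, starting 65 bases before the start site on the other strand (as ATTGG) and 2 bases before it on the gene's own strand. None of these letters occurred in the XRCC2 and FANCB windows, which says nothing of the factors or of their sites in other spellings. Of the 31 members with a listed promoter, FANCC, CHEK1, RAD51B, RAD51D and RBBP8 had a first listed start more than 1000 bases inside the GENCODE gene, so their windows may not be the promoter in use. Of these 31, 5 held the E2F letters (16.1%), against 8.9% of 8910 promoters of genes tested here. CCAAT occurred in 14 members (45.2%) and in 37.6% of the genes tested, the CHR letters in 4 members (12.9%) and in 11%, and the E-box in 3 members (9.68%) and in 10.3%. The 5 members with E2F letters, EXO1, FANCC, FANCF, BLM and FANCA, had a median log2 change of -0.28, and the 26 without them also had a median of -0.28. Members without these letters may hold E2F sites of another spelling, so this split does not compare genes with and without such sites.

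**Figure D1:**
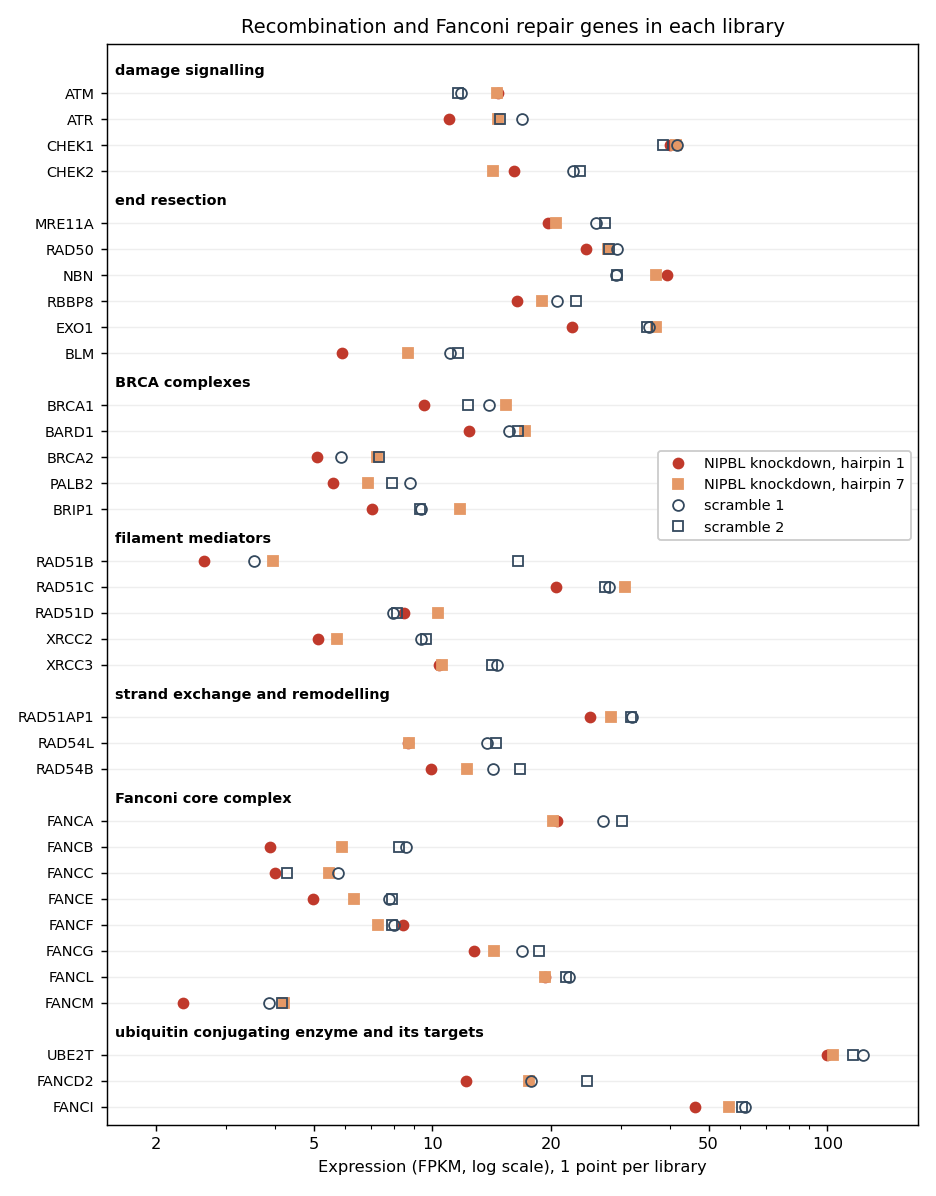
Expression of the 34 repair genes in FPKM on a log axis, grouped by role, with 1 point per library: filled points are NIPBL knockdown (hairpin 1 and hairpin 7) and open points are scramble. UBE2T is highest at 99.48 to 123.14 FPKM, hairpin 1 gives the lowest point of most genes, and for RAD51B scramble 2 stands apart at 16.44 FPKM.

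The members spanned a wide range of levels. In scramble libraries the mean ran from 4.01 ± 0.212 FPKM for FANCM to 120 ± 5.0 FPKM for UBE2T (SD, n = 2), with a median over members of 15.6 FPKM, against 12.9 FPKM over all genes tested. FANCI followed at 61.3 ± 0.813 FPKM (SD, n = 2). BRCA2, FANCC and FANCM held the lowest scramble means, of 6.6 ± 1.05, 5.02 ± 1.03 and 4.01 ± 0.212 FPKM (SD, n = 2). RAD51B was below each of them in scramble 1, at 3.54 FPKM. Its scramble mean of 9.99 ± 9.12 FPKM (SD, n = 2) rested on scramble 2. With hairpin 1, FANCB at 3.87 FPKM also lay below FANCC at 3.99 FPKM. The SDs of BRCA2 and FANCC reach into each other, as do those of FANCC and FANCM. Within every library BRCA2 was above FANCC and FANCC above FANCM, by gaps that were small in places. BRCA2 and FANCC were at 5.86 and 5.75 FPKM in scramble 1, and FANCC and FANCM at 4.29 and 4.16 FPKM in scramble 2. This order was not tested. The summed FPKM of the 34 members was 575 with hairpin 1 and 664 with hairpin 7, against 724 and 739 in the scramble libraries.

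The kinases that signal damage lay on different sides of scramble. ATM encodes the kinase that answers double-strand breaks, and was at 14.67 FPKM with hairpin 1 and 14.58 FPKM with hairpin 7, against 11.83 and 11.61 FPKM in the scramble libraries. Both hairpin libraries were above both scramble libraries, a pattern that 29.5% of all genes had (log2 change 0.30 ± 0.10, SE, limma, adjusted p = 0.152). ATR, the kinase that answers exposed single strands, was at 11.03 and 14.62 FPKM with hairpins 1 and 7, against 16.82 and 14.79 FPKM in scramble. Both hairpins were below both scramble libraries, as in 30.8% of all genes, but hairpin 7 lay only just below scramble 2 (log2 change -0.29 ± 0.16, SE, limma, adjusted p = 0.320). CHEK2, the checkpoint kinase that ATM activates, was at 16.06 and 14.22 FPKM with hairpins 1 and 7, against 22.68 and 23.61 FPKM in scramble. Its knockdown libraries averaged 65.4% of scramble, with hairpin 7 the lower (log2 change -0.58 ± 0.11, SE, limma, adjusted p = 0.0671). CHEK1, the checkpoint kinase downstream of ATR, was at 39.89 and 41.40 FPKM with hairpins 1 and 7, against 41.57 and 38.40 FPKM in scramble. Both hairpin values lay between the scramble values, and the 95% interval of its log2 change ran from -0.22 to 0.27 (limma).

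Genes of end resection had a log2 change below 0 in 5 of 6 cases, against 51.7% of all genes, and the exception, NBN, acts in the same complex as MRE11A and RAD50. MRE11A encodes the nuclease of the complex that senses and trims ends, and was at 19.64 and 20.55 FPKM with hairpins 1 and 7, against 25.87 and 27.37 FPKM in scramble (log2 change -0.39 ± 0.10, SE, limma, adjusted p = 0.0972). NBN, which links that complex to ATM, was at 39.26 and 36.85 FPKM with hairpins 1 and 7, against 29.23 and 29.35 FPKM in scramble. Its knockdown mean was 130% of scramble, both hairpins were above both scramble libraries, and its log2 change of 0.37 ± 0.09 was the highest of all members over the 4 libraries (SE, limma, adjusted p = 0.101). RAD50, the ATPase of the complex, was at 24.52 and 27.76 FPKM with hairpins 1 and 7, against 29.36 and 28.05 FPKM in scramble. Only hairpin 1 was clearly lower, at 85.4% of the scramble mean, against 96.7% for hairpin 7 (log2 change -0.13 ± 0.11, SE, limma, adjusted p = 0.470). The knockdown libraries therefore held less MRE11A and more NBN transcript than scramble, with no overlap for either gene, and neither difference passed the test. Of all genes tested, 30.8% had both hairpins below both scramble libraries and 29.5% had both above.

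RBBP8 encodes CtIP, which starts trimming with MRE11A, and was at 16.37 and 18.94 FPKM with hairpins 1 and 7, against 20.62 and 23.04 FPKM in scramble (log2 change -0.29 ± 0.12, SE, limma, adjusted p = 0.214). BLM encodes a helicase of long-range trimming and of junction dissolution, and was at 5.90 and 8.65 FPKM with hairpins 1 and 7, against 11.10 and 11.59 FPKM in scramble. Hairpin 1 thus gave 52.0% and hairpin 7 gave 76.2% of the scramble mean, without overlap (log2 change -0.60 ± 0.19, SE, limma, adjusted p = 0.141). EXO1, the nuclease of long-range trimming, was at 22.53 and 36.81 FPKM with hairpins 1 and 7, against 35.36 and 35.02 FPKM in scramble. Hairpin 1 was well below and hairpin 7 slightly above both scramble values, so the mean of the group describes neither library (log2 change -0.28 ± 0.24, SE, limma, adjusted p = 0.488).

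**Figure D2:**
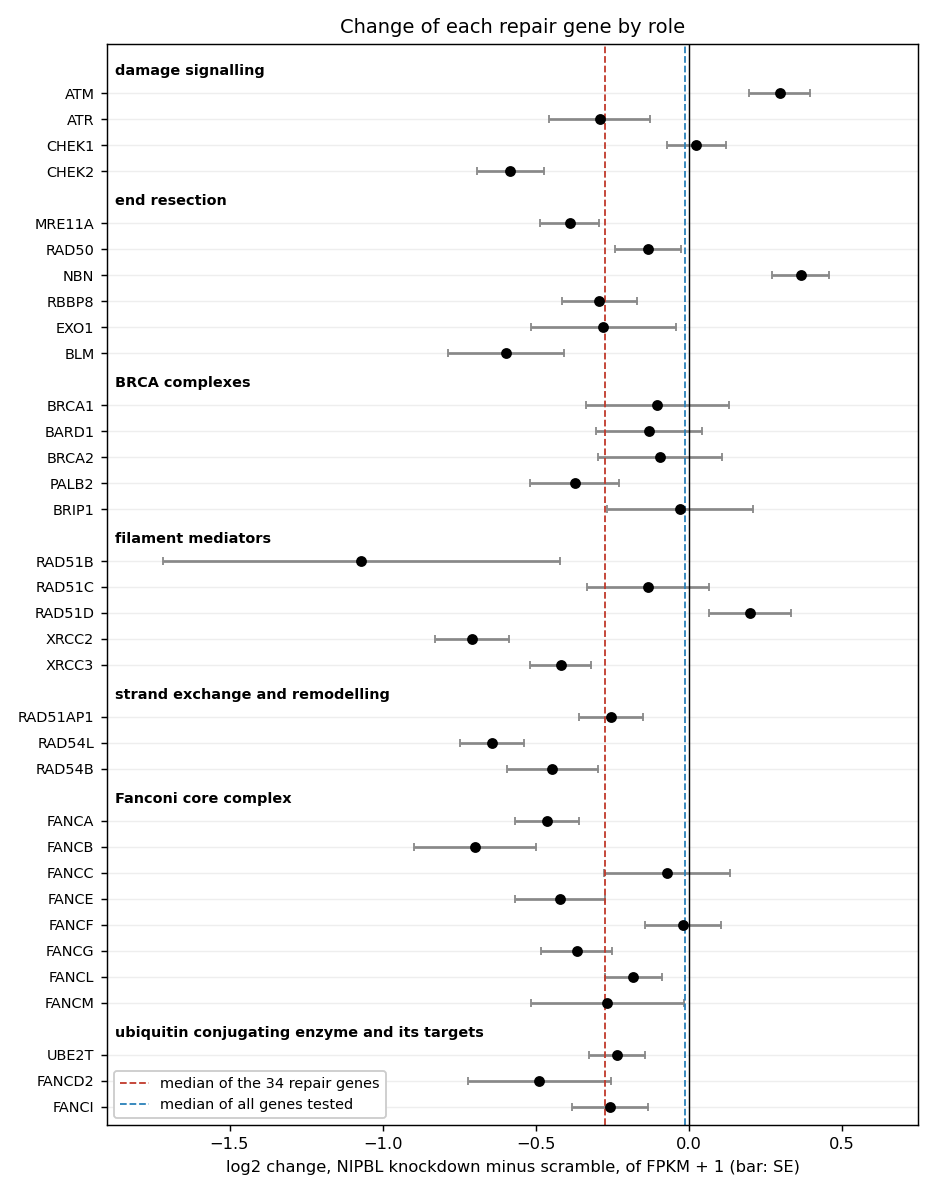
Log2 change of each repair gene (NIPBL knockdown minus scramble, of FPKM + 1) by role, with bars of 1 SE from limma over 2 libraries per group. Most points lie left of 0, the median of the 34 genes is -0.27 and that of all genes tested -0.01, and RAD51B has the widest bar.

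The 5 genes of the BRCA complexes had a median log2 change of -0.10, and all 5 values lay below 0, against 51.7% of all genes. BRCA1 and BARD1 form a ubiquitin ligase that favours recombination. BRCA1 was at 9.52 FPKM with hairpin 1 and 15.35 FPKM with hairpin 7, against 13.94 and 12.27 FPKM in scramble. BARD1 was at 12.37 FPKM with hairpin 1 and 17.16 FPKM with hairpin 7, against 15.60 and 16.51 FPKM in scramble. For both partners hairpin 1 was below and hairpin 7 above both scramble libraries, and the log2 changes were -0.10 ± 0.23 and -0.13 ± 0.17 (SE, limma, adjusted p = 0.811 and 0.667). BRIP1, a helicase that binds BRCA1, was at 7.03 FPKM with hairpin 1 and 11.74 FPKM with hairpin 7, against 9.34 and 9.30 FPKM in scramble. It shows the same split, with hairpin 1 at 75.4% and hairpin 7 at 126% of the scramble mean. Its knockdown mean was 101% of scramble while its log2 change was -0.03 ± 0.24, so the direction depends on the scale, and rescaling to TPM turned it to 0.0073 (SE, limma, adjusted p = 0.950 before and 0.991 after rescaling).

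BRCA2 helps build the filament on single strands, and was at 5.10 and 7.24 FPKM with hairpins 1 and 7, against 5.86 and 7.34 FPKM in scramble. Hairpin 7 lay between the scramble values, and the 95% interval of the log2 change ran from -0.62 to 0.43 (limma). PALB2, which joins BRCA1 to BRCA2, was at 5.59 and 6.88 FPKM with hairpins 1 and 7, against 8.76 and 7.92 FPKM in scramble. It was the only gene of these 5 with both hairpins below both scramble libraries, a pattern that 30.8% of all genes had (log2 change -0.37 ± 0.14, SE, limma, adjusted p = 0.191). The median log2 change of the 5 genes was -0.36 with hairpin 1 and 0.12 with hairpin 7.

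The 5 filament mediators, whose products help the filament form and hold, ranged from the lowest log2 change of all members to a value above 0. XRCC2 was at 5.12 and 5.74 FPKM with hairpins 1 and 7, against 9.35 and 9.62 FPKM in scramble. The knockdown mean was 57.2% of scramble, the scramble libraries differed by 1.03-fold and the hairpins by 1.12-fold (log2 change -0.71 ± 0.12, SE, limma, adjusted p = 0.0594). XRCC3 was at 10.38 and 10.56 FPKM with hairpins 1 and 7, against 14.55 and 14.12 FPKM in scramble, again without overlap (log2 change -0.42 ± 0.10, SE, limma, adjusted p = 0.0925). RAD51C, the partner of XRCC3 and also of the complex with RAD51B, RAD51D and XRCC2, was at 20.59 and 30.72 FPKM with hairpins 1 and 7, against 28.05 and 27.33 FPKM in scramble. Hairpin 1 was below and hairpin 7 above both scramble values (log2 change -0.13 ± 0.20, SE, limma, adjusted p = 0.706).

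RAD51D was at 8.49 and 10.30 FPKM with hairpins 1 and 7, against 7.93 and 8.11 FPKM in scramble. Both hairpins were above both scramble libraries, hairpin 1 only slightly (log2 change 0.20 ± 0.13, SE, limma, adjusted p = 0.392). RAD51B was at 2.64 and 3.94 FPKM with hairpins 1 and 7, against 3.54 and 16.44 FPKM in scramble. The scramble libraries differed by 4.64-fold, and hairpin 7 lay between them. The log2 change of -1.07 ± 0.65 was the lowest of all members and rested on scramble 2, since it was -0.10 without that library (SE, limma, adjusted p = 0.351 with it). The 4 genes whose products share the BCDX2 complex (RAD51B, RAD51C, RAD51D and XRCC2) thus had log2 changes between -1.07 and 0.20. XRCC2 was the only such gene with both hairpins below both scramble libraries. Of all genes, 30.8% had that pattern, and 29.5% had both hairpins above, as RAD51D did.

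Genes of strand exchange were lower in all 3 cases without overlap, a pattern that 30.8% of all genes had. RAD54L encodes the motor that lets the filament invade and move along the duplex, and was at 8.67 and 8.71 FPKM with hairpins 1 and 7, against 13.75 and 14.52 FPKM in scramble. The hairpins differed by 1.005-fold, the knockdown mean was 61.5% of scramble, and its adjusted p was the smallest of all members over the 4 libraries (log2 change -0.64 ± 0.10, SE, limma, adjusted p = 0.0544). RAD54B, its relative, was at 9.93 and 12.25 FPKM with hairpins 1 and 7, against 14.21 and 16.65 FPKM in scramble (log2 change -0.45 ± 0.15, SE, limma, adjusted p = 0.154). RAD51AP1, which stimulates strand pairing, was at 25.09 and 28.31 FPKM with hairpins 1 and 7, against 32.08 and 31.88 FPKM in scramble (log2 change -0.25 ± 0.10, SE, limma, adjusted p = 0.207). With protein-coding genes alone adjusted together, RAD54L and XRCC2 passed at an adjusted p of 0.0461 and 0.0490 (limma), where 4.03% of the genes tested were called. With a floor of 5 FPKM, RAD54L alone of 32 members passed at an adjusted p of 0.0475 (limma), where 3.84% of genes were called. Over all alternatives tried the adjusted p of RAD54L lay between 0.0185 and 0.616, and that of XRCC2 between 0.0205 and 0.614.

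The Fanconi core complex, the ubiquitin ligase of the pathway, had 8 members, all with a log2 change below 0 (FANCF was at 0.017 with values rescaled to TPM), and 5 with both hairpins below both scramble libraries. Of all genes tested, 51.7% had a log2 change below 0 and 30.8% had both hairpins below. FANCB was at 3.87 and 5.89 FPKM with hairpins 1 and 7, against 8.57 and 8.23 FPKM in scramble. Hairpin 1 gave 46.1% and hairpin 7 gave 70.1% of the scramble mean (log2 change -0.70 ± 0.20, SE, limma, adjusted p = 0.119). FANCA, a subunit that binds FANCG, was at 20.68 and 20.14 FPKM with hairpins 1 and 7, against 27.01 and 30.13 FPKM in scramble (log2 change -0.46 ± 0.10, SE, limma, adjusted p = 0.0851). FANCG was at 12.76 and 14.34 FPKM with hairpins 1 and 7, against 16.90 and 18.59 FPKM in scramble (log2 change -0.37 ± 0.12, SE, limma, adjusted p = 0.142). These partners were at 71.4% and 76.4% of scramble.

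FANCE, which contacts FANCD2, was at 4.97 and 6.32 FPKM with hairpins 1 and 7, against 7.77 and 7.92 FPKM in scramble (log2 change -0.42 ± 0.15, SE, limma, adjusted p = 0.165). FANCL, the catalytic ligase subunit, was at 19.23 and 19.28 FPKM with hairpins 1 and 7, against 22.12 and 21.82 FPKM in scramble (log2 change -0.18 ± 0.09, SE, limma, adjusted p = 0.282). Both genes were lower with each hairpin, FANCL by the smaller amount, at 87.6% of scramble. FANCC, which pairs with FANCE, was at 3.99 and 5.48 FPKM with hairpins 1 and 7, against 5.75 and 4.29 FPKM in scramble, and hairpin 7 lay between the scramble values. FANCF, an adaptor of the complex, was at 8.44 and 7.26 FPKM with hairpins 1 and 7, against 8.01 and 7.88 FPKM in scramble. It was the only member with hairpin 1 above and hairpin 7 below both scramble libraries, and the 95% interval of its log2 change ran from -0.34 to 0.31 (limma). FANCM, the translocase that brings the complex to DNA, was at 2.33 and 4.21 FPKM with hairpins 1 and 7, against 3.86 and 4.16 FPKM in scramble. Hairpin 1 was at 58.1% of the scramble mean and hairpin 7 just above both scramble values.

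The conjugating enzyme and its targets were lower in all 3 cases without overlap, against 30.8% of all genes. UBE2T, the conjugating enzyme that works with FANCL, was at 99.48 and 103.53 FPKM with hairpins 1 and 7, against 123.14 and 116.07 FPKM in scramble (log2 change -0.23 ± 0.09, SE, limma, adjusted p = 0.196). FANCI was at 46.29 and 56.30 FPKM with hairpins 1 and 7, against 61.83 and 60.68 FPKM in scramble (log2 change -0.26 ± 0.12, SE, limma, adjusted p = 0.262). FANCD2 was at 12.18 and 17.56 FPKM with hairpins 1 and 7, against 17.78 and 24.62 FPKM in scramble, where the libraries differed by 1.38-fold. Hairpin 7 lay just below scramble 1, so the separation for FANCD2 rests on a small gap (log2 change -0.49 ± 0.23, SE, limma, adjusted p = 0.260). Its log2 change was -0.71 without scramble 1 and -0.26 without scramble 2, and it was -0.24 with the hairpin 1 library left out and -0.73 with the hairpin 7 library left out.

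**Figure D3:**
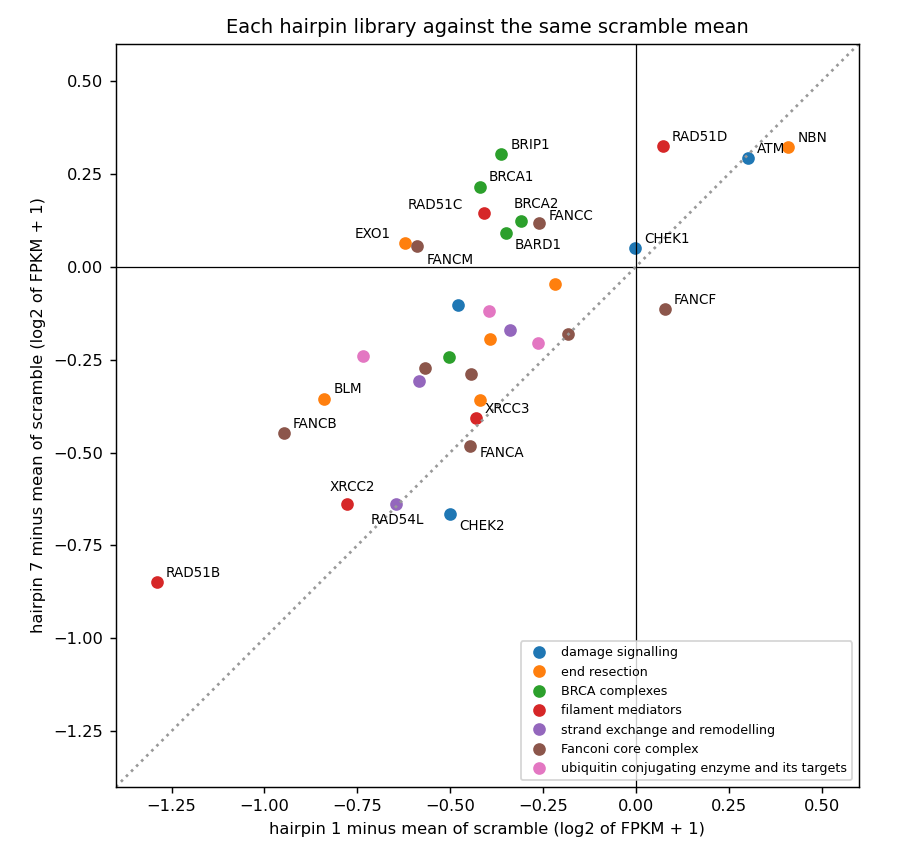
Log2 difference of hairpin 1 (x axis) and hairpin 7 (y axis) from the mean of the same 2 scramble libraries, of FPKM + 1, with 1 point per repair gene coloured by role; the dotted line marks equal differences and some of the points carry their gene's name. Of the 34 points, 29 lie above the dotted line. BRIP1, BRCA1, RAD51C, BARD1, BRCA2, FANCC, EXO1 and FANCM lie below 0 for hairpin 1 and above 0 for hairpin 7, as does CHEK1, at -0.002 and 0.05.

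The hairpins differed in how far the members lay from scramble. Hairpin 1 was below both scramble libraries in 29 of 34 members, against 42.6% of all genes tested, and hairpin 7 in 21 members, against 47.0%. The median difference from the scramble mean was -0.42 with hairpin 1 and -0.17 with hairpin 7, and 0.007 and -0.03 over all genes. In 29 members hairpin 7 was higher than hairpin 1, against 45.7% of all genes. NIPBL itself was at 30.9% of scramble with hairpin 1 and 39.0% with hairpin 7. Each hairpin is 1 library and both comparisons use the same scramble libraries, so the difference between the hairpins has no test.

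The hairpin values of the members followed a few patterns. Beside the 20 genes with both hairpins below scramble, 6 had hairpin 1 below and hairpin 7 above both scramble libraries, against 8.31% of all genes, and 3 had hairpin 1 below and hairpin 7 between them, against 3.51%. The 6 were EXO1, BRCA1, BARD1, BRIP1, RAD51C and FANCM, and the 3 were BRCA2, RAD51B and FANCC. FANCF had the reverse pattern, which 10.7% of all genes had. When NIPBL knockdown 1 was left out, limma called 9 of 34 members, against 35.3% of all genes, and when NIPBL knockdown 2 was left out it called 13, against 22.7% of all genes. Those fits take the spread of the remaining hairpin library to be that of scramble. The 8 members called both times were CHEK2, MRE11A, BLM, XRCC2, XRCC3, RAD54L and FANCB, all lower, and NBN, which was higher. Of all genes tested 15.2% were called both times, and the 2 fits share the scramble libraries.

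Several members lie head to head with another gene. In GENCODE 29, 9 of 34 members (26.5%) had a protein-coding gene starting within 1000 bases upstream on the other strand, against 10.1% of 11291 tested protein-coding genes. Of the 9 neighbours 6 were tested, 0 passed, and 2 had a log2 change below 0 (limma). For PALB2 and its neighbour DCTN5, whose start lies 82 bases away, the log2 changes were -0.37 and -0.39, while for XRCC3 and its neighbour ZFYVE21 they were -0.42 and 0.29. FANCB, at -0.70, faces MOSPD2, at -0.05. The first pair had like values and the other two unlike values, and these 3 pairs were chosen after their values were seen.

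**Figure D4:**
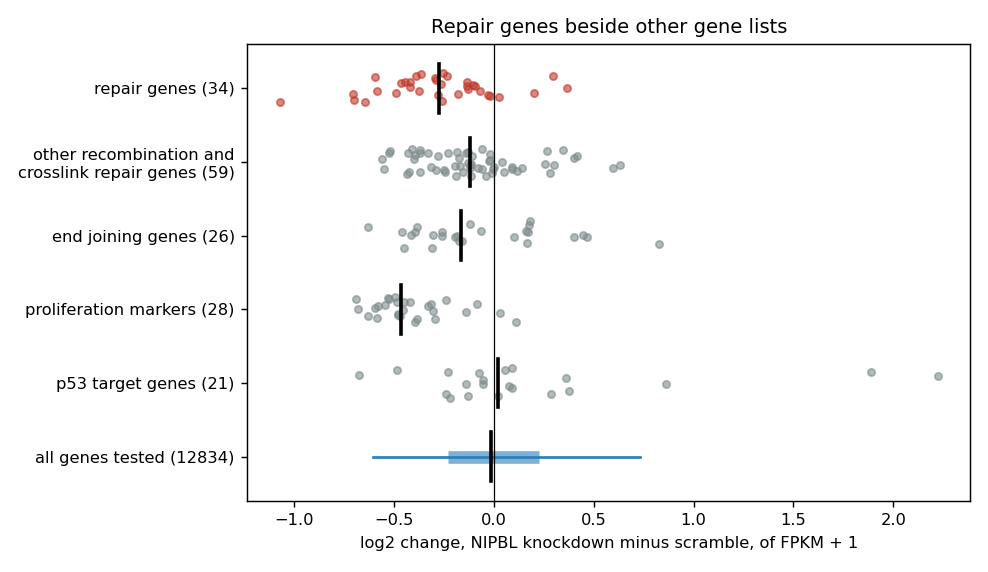
Log2 change (NIPBL knockdown minus scramble, of FPKM + 1) of the 34 repair genes and of genes in other lists, with 1 point per gene and a black bar at each median; for all genes tested the thick and thin lines span percentiles 25 to 75 and 5 to 95. The medians are -0.27 for the repair genes, -0.12 for other recombination and crosslink repair genes, -0.17 for end joining genes, -0.46 for proliferation markers, 0.02 for p53 targets and -0.01 for all genes.

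Other genes of the pathway, such as the single-strand binding proteins, nucleases, helicases and 9-1-1 clamp, formed a list of 60, of which 59 were tested. In this list 0 passed (smallest limma adjusted p = 0.0782), 44 had a log2 change below 0, against 51.7% of all genes, and the median was -0.12. The other 15 lay above 0, and the log2 changes ran from -0.56 to 0.63. The meiotic pairing gene MND1 had a log2 change of -0.52 ± 0.11, the helicase gene RTEL1 of -0.52 ± 0.11 and the nuclease gene DNA2 of -0.56 ± 0.13 (SE, with adjusted p of 0.0782 to 0.0856 by limma). Of 26 tested genes of end joining, which reseals breaks without a template, 0 passed (smallest limma adjusted p = 0.0794) and 16 lay below 0, with a median of -0.17. The end joining factor gene C9orf142, also called PAXX, had a log2 change of -0.41, the shieldin gene FAM35A of -0.45 and PARP2 of -0.46. This list did not fall as a whole, since 10 genes lay above 0 and the log2 changes ran from -0.63 to 0.83. In 9 of its genes both hairpins were above both scramble libraries and in 13 both were below, against 29.5% and 30.8% of all genes. MAD2L2 stands in both lists. The median difference was -0.22 with hairpin 1 and -0.09 with hairpin 7 for the other recombination genes, and -0.19 and -0.16 for end joining genes.

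Proliferation markers were lower beside the repair genes. Of 28 markers 26 had a log2 change below 0, against 51.7% of all genes, and the median was -0.46. In the test over all genes 2 markers fell, where 1.11% of all genes fell, and 0 rose, where 1.45% did (limma). The 2 were MCM6 and MCM3, which belong to the helicase of replication forks, with log2 changes of -0.68 ± 0.09 and -0.58 ± 0.09 (SE, limma, adjusted p = 0.0409 and 0.0493). Summed over the list, the markers gave 2014 to 2188 FPKM in the knockdown libraries and 2676 to 2691 FPKM in the scramble libraries, and 0 of the 28 were at 0. Their part in the lower values of the repair genes was not tested. The markers' median was -0.46 with hairpin 1 and -0.33 with hairpin 7.

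Among 21 tested targets of p53, the transcription factor that answers DNA damage, 2 rose, where 1.45% of all genes did, and 0 fell, where 1.11% did (limma), and the median log2 change was 0.02. CDKN1A, an inhibitor of cyclin-dependent kinases, was at 66.80 and 100.96 FPKM with hairpins 1 and 7, against 16.01 and 17.67 FPKM in scramble (log2 change 2.22 ± 0.21, SE, limma, adjusted p = 0.0218). TP53I3, an oxidoreductase gene, was at 21.66 and 18.19 FPKM with hairpins 1 and 7, against 5.15 and 4.16 FPKM in scramble (log2 change 1.89 ± 0.15, SE, limma, adjusted p = 0.0174). The remaining 19 tested targets did not pass, and 10 of the 21 had a log2 change below 0. The calls of these 2 genes and of MCM6 and MCM3 come from the fit with both scramble libraries. A fit without scramble 1 or scramble 2 has 1 library in that group. It therefore cannot show whether a call depends on either library.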

How the data were processed

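RNA libraries of NUGC3 cells were sequenced, 2 with NIPBL knockdown and 2 with scramble. The deposited values are the authors' FPKM per gene, with 2 decimals. The submitters' processing notes name STAR and RSEM, without versions. Not given in the sources used here are the build, the annotation, the strand setting and any filter. Of 344810 rows, 291033 without a gene name (8.47% to 9.27% of a library's FPKM) stayed out of the test. Without the strand setting it is unknown whether overlapping genes on opposite strands were told apart, and values of RSEM for near-identical copies are uncertain. Depth is unknown, so no counting intervals are given.

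Values were tested as log2(FPKM + 1), which understates changes of low genes, with limma 3.58.1 in R 4.3.3 (lmFit, eBayes with a mean trend, 2 residual and 2.87 prior degrees of freedom), two-sided, over the 12834 genes averaging 1 FPKM or more, adjusted by Benjamini and Hochberg. With 2 against 2 libraries the smallest p of an exact permutation test is 0.333, and none was run. The fit was tested on simulated data. The members, their roles, the 6 other lists and the genes named (every member, NIPBL, and in the 4 gene lists the genes that passed or otherwise the 3 with the smallest p) were chosen with earlier results of these data known. Outside that rule, 3 genes beside members, 3 absent or low markers and MAD2L2 were named after their values were seen. Sequences are from RefSeq (GRCh38.p14), matched by symbol for 31 members (MRE11A as MRE11; not FANCI, NBN or RAD54B), and chromosomes and neighbours from GENCODE 29, matched by identifier for all 34. Percentages of scramble are ratios of mean FPKM. Alternatives covered the pseudocount, the filter, the scaling, the fit, the genes tested and leaving out each library.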

Additional observations from a re-analysis of the deposited data

Results flagged for a closer look

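In 7 members the hairpins lay on opposite sides of both scramble libraries, and this difference was not tested because each hairpin is 1 library. Hairpin 7 minus hairpin 1 on the log2(FPKM + 1) scale was 0.68 for EXO1, 0.67 for BRIP1, 0.65 for FANCM, 0.64 for BRCA1, 0.56 for RAD51C and 0.44 for BARD1, where hairpin 1 was the lower. It was -0.19 for FANCF, where hairpin 7 was the lower. Over all genes tested, 8.31% had hairpin 1 below and hairpin 7 above both scramble libraries, and 10.7% had the reverse.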

How the results depend on the processing

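The median log2 change of the members stayed below 0 under all 14 alternatives, between -0.42 without NIPBL knockdown 2 and -0.17 without NIPBL knockdown 1, and between 22 and 30 members lay below 0. The number of members called, 0 in the test reported, was 1 with a mean of at least 5 FPKM (RAD54L), 2 with protein-coding genes only, and between 0 and 13 with 1 library left out. The number of genes called was 328. It was 1 with no filter on low values (4275 at an unadjusted p under 0.05), where rows at 0 in every library were dropped, 0 with the scramble libraries averaged to 1 value (975 at an unadjusted p under 0.05), and between 0 and 4532 with 1 library left out. The fit with no filter tested 25230 genes with all 4 libraries, and the averaged and left-out fits had 1 value on 1 side; the cause was not tested. NIPBL kept its sign under all alternatives, with a log2 change from -1.57 to -1.27. It lost its call with no filter (limma adjusted p = 0.118). The call was also lost with the scramble libraries averaged and without scramble 1 or scramble 2. Rescaling to TPM turned BRIP1 to 0.0073 and FANCF to 0.017 and moved the median of all genes from -0.01 to 0.02. With 1 library left out, 10 members turned sign in at least 1 fit, and none of them passed in the fit that turned it. Their log2 changes over these fits ran from -0.032 to 0.080 for CHEK1, -0.62 to 0.063 for EXO1, -0.42 to 0.22 for BRCA1, -0.35 to 0.091 for BARD1, -0.31 to 0.12 for BRCA2, -0.36 to 0.30 for BRIP1, -0.41 to 0.14 for RAD51C, -0.26 to 0.12 for FANCC, -0.11 to 0.078 for FANCF and -0.59 to 0.057 for FANCM. Of the 13 turns, 8 came without NIPBL knockdown 1 (EXO1, BRCA1, BARD1, BRCA2, BRIP1, RAD51C, FANCC and FANCM). No paired analysis was possible because the labels give the groups no shared replicate numbers.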
